A study of Mus musculus with 30 samples.

Results

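The duration of oral benzo[a]pyrene (BaP) feeding was examined in preputial glands of wild-type male mice by comparing the arrays of weeks 12 and 16 with those of weeks 4 and 8. These were 8 of the 30 arrays of the series, chosen by genotype and week from the array titles: 4 late and 4 early arrays, with 2 mice at each week. All of these mice were male, wild type, on the B6 background and fed BaP, a carcinogenic polycyclic aromatic hydrocarbon formed in combustion. Feeding was started when the mice were 6 weeks old and supplied roughly 12.5 mg/kg/day, and 15 mice per genotype were killed at each time point, per the labels' protocols. The late mice were therefore 18 and 22 weeks old and the early mice 10 and 14 weeks old, so duration of feeding and age cannot be told apart. The 2 wild-type (WT) mice of week 0, killed before feeding, entered no tested contrast; they contributed to the estimate of the spread, and their values are given beside some genes. The 8 Cyp1a1 knockout (KO) arrays of the same weeks, from males on the same diet, served for a single comparison between genotypes. The tissue is labelled preputial gland duct, and the protocol describes whole glands dissected from the surrounding tissue.

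The preputial glands are paired modified sebaceous glands that open beside the penis through ducts lined by stratified squamous epithelium. BaP binds the aryl hydrocarbon receptor, which induces the CYP1 enzymes that both clear BaP and convert it to products that bind DNA. Injured epithelium and its stroma make chemokines and cytokines that call in monocytes and neutrophils. Immediate early genes, which are transcribed within minutes of a growth factor or stress signal, are part of the same responses. The study as a whole concerned squamous carcinoma of the gland duct. The question here was which genes differed between longer and shorter feeding when every animal had received BaP.

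Values are log2 intensities, and a difference of 1 is a doubling of signal. A value after ± is the model's standard error, and the level of a gene is set only against its own level in other arrays. The arrays carry no detection call, and the median of all genes on an array lay between 5.18 and 5.30 in the 8 arrays. For a gene below that level no fold is given, since background is a larger part of its signal. The 13 markers of sebocytes and duct epithelium averaged 8.99 to 9.10 in the late arrays and 9.07 to 9.15 in the early arrays. The 13 markers of other male accessory glands averaged 3.53 to 3.61 in the late arrays and 3.47 to 3.51 in the early arrays, and 11 of them lay below the array median. The 16 markers of skeletal muscle averaged 4.48 to 4.61 in the late arrays and 4.47 to 4.77 in the early arrays. In whole tissue, fewer cells of a type and less RNA per cell cannot be told apart.

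A pair of the WT arrays stood apart from the rest. Replicate 1 of week 12 correlated at 0.961 to 0.977 with the 8 WT arrays other than week 0 replicate 2, which among themselves correlated at 0.988 to 0.995. It correlated at 0.985 with week 0 replicate 2, which had correlations of 0.968 to 0.980 with those 8 arrays. These correlations run across genes, which are not independent replicates. The standard deviation of the difference between the 2 mice of a week, over all genes, was 0.426 at week 12, against 0.223 at week 16, 0.221 at week 4 and 0.193 at week 8. The main results are therefore given with and without week 12 replicate 1, and the others over all arrays only. Without it, week 12 rests on a single array that is assumed to vary like the others.

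**Figure D1:**
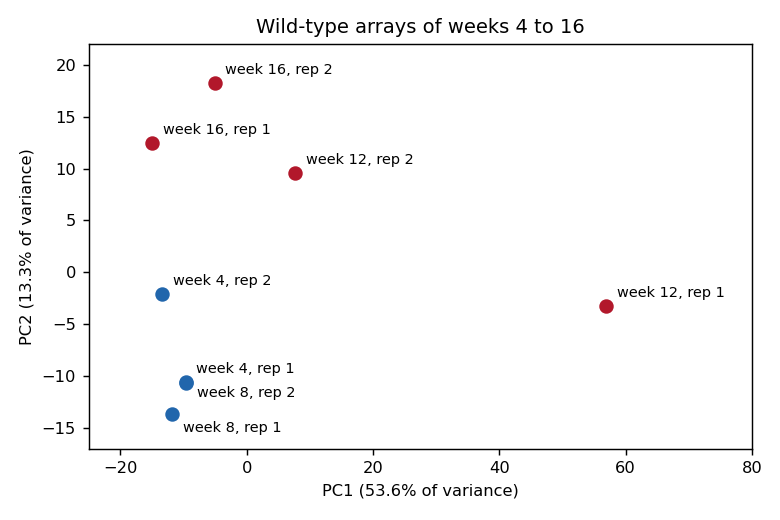
Each point is 1 of the 8 WT arrays, placed by its first principal component (x axis, 53.6% of the variance, arbitrary units) and its second (y axis, 13.3%), with late arrays in red and early arrays in blue. Week 12 replicate 1 lies alone at the right, and the other 3 late arrays lie above the 4 early arrays on the second component.

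The first component held 53.6% of the variance among the 8 arrays and set week 12 replicate 1, at 56.9, against all others, which lay between -15.0 and 7.62. The second held 13.3%. On it the other 3 late arrays lay at 9.56, 12.5 and 18.2, the 4 early arrays lay between -13.6 and -2.13, and week 12 replicate 1 lay among the early arrays at -3.26.

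No gene was called between late and early weeks by limma at an adjusted p under 0.05 (0 of 18784 genes, 0%), and the smallest adjusted p was 0.0580, shared by the monocyte chemokines Ccl2 and Ccl7. At an unadjusted p under 0.05 there were 2262 genes (12.0%), of which 950 lay higher (5.06%) and 1312 lower (6.98%) in the late weeks. The late arrays lay wholly above the early arrays for 608 genes (3.24%) and wholly below them for 986 genes (5.25%). A difference of at least 1 was reached by 15 genes upward and 3 downward, and the median difference over all genes was 0.024. Without week 12 replicate 1 there were 34 called genes (0.181%), 33 of them higher (0.176%) and 1 lower (0.00532%) in the late weeks. Without week 12 replicate 2 there were 81, of which 5 were also among those 34. Ccl2, Ccl7, Tnfaip6 and Nr4a3 were near the top of both sets.

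Monocyte chemokines showed the smallest p values. Ccl2, which draws monocytes out of the blood through the receptor CCR2, read 7.54 and 8.33 at week 12 and 5.89 and 6.44 at week 16, against 5.68 and 5.48 at week 4 and 5.20 and 5.03 at week 8. Every late array lay above every early one, and both week 12 arrays lay above both week 16 arrays. The difference was 1.71 ± 0.19 (95% interval 1.29 to 2.13, 3.26-fold, limma adjusted p = 0.0580), and 1.90 ± 0.15 without week 12 replicate 1 (limma adjusted p = 0.00484). In the week 0 mice Ccl2 read 5.26 and 5.53, within the early range.

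Ccl7, a neighbouring chemokine that acts on the same receptor and on others, read 7.10 and 7.51 at week 12 and 5.30 and 5.65 at week 16, against 5.10 and 5.08 at week 4 and 5.04 and 5.25 at week 8. The week 12 mice were set clear of all others, while the lower week 16 array was only just above the highest early one. The difference was 1.27 ± 0.14 (limma adjusted p = 0.0580), and 1.37 ± 0.14 without week 12 replicate 1 (limma adjusted p = 0.0107). Week 0 replicate 2 read 5.35, above the lower week 16 array.

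Tnfaip6 encodes a secreted protein that binds hyaluronan and is induced by tumour necrosis factor and interleukin 1. It read 6.76 and 8.17 at week 12 and 5.12 and 5.80 at week 16, against 4.35 and 4.999 at week 4 and 4.14 and 3.74 at week 8. Late and early arrays did not overlap, and week 12 was again the highest. The difference, 2.15 ± 0.29, was the widest of the 15 genes named by rule as higher (limma adjusted p = 0.119), and it was 2.50 ± 0.21 without week 12 replicate 1 (limma adjusted p = 0.00484).

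**Figure D2:**
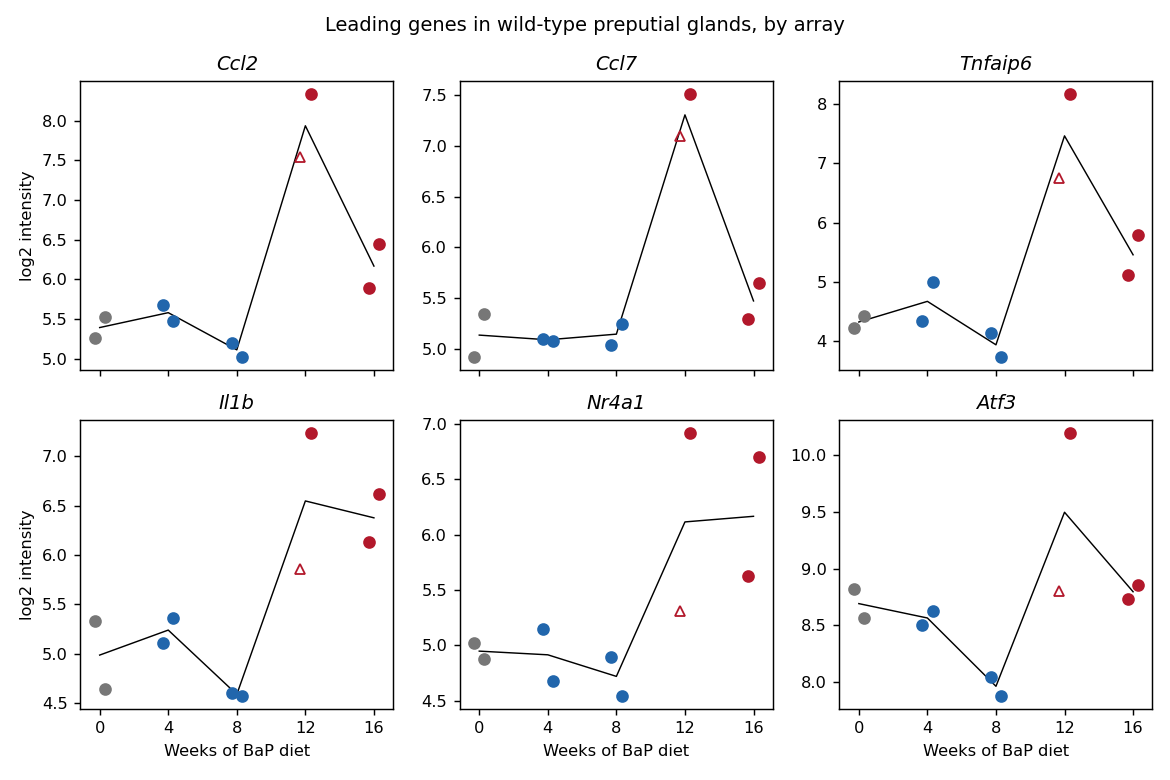
Log2 intensity (y axis) of 6 genes in each WT array against weeks of BaP diet (x axis), with week 0 in grey, early weeks in blue and late weeks in red. Replicate 1 is the left point of each pair, week 12 replicate 1 is an open triangle, and the line joins the means of 2 mice. Ccl2, Ccl7 and Tnfaip6 were highest at week 12, and Il1b and Nr4a1 had similar means at weeks 12 and 16.

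Over the 15 measured genes of monocyte chemokines and hyaluronan, 13 differences were positive with a median of 0.12, against 0.024 over all genes. At an unadjusted p under 0.05, 3 members lay higher and none lower, and the same 3 were called without week 12 replicate 1. They were Ccl2, Ccl7 and Tnfaip6. Over all genes 5.06% lay higher and 6.98% lower at an unadjusted p under 0.05, the shares beside which each list is to be read. The mean level of the list was 5.99 to 6.92 in the late arrays and 5.89 to 6.16 in the early arrays, so the list as a whole overlapped.

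Neutrophil and acute inflammation genes followed. Il1b, the secreted cytokine interleukin 1 beta, read 5.86 and 7.24 at week 12 and 6.13 and 6.62 at week 16, against 5.11 and 5.37 at week 4 and 4.60 and 4.57 at week 8. The groups did not overlap, and in contrast to the chemokines the week 16 arrays lay between the 2 week 12 arrays. The difference was 1.55 ± 0.28 (limma adjusted p = 0.170), and 1.89 ± 0.19 without week 12 replicate 1 (limma adjusted p = 0.00819).

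Cxcl2, a neutrophil chemokine, read 4.15 and 5.11 at week 12 and 3.96 and 3.96 at week 16, against 3.10 and 3.63 at week 4 and 3.22 and 3.17 at week 8. Its arrays did not overlap, although all of them lay below the array median. The difference was 1.02 ± 0.20 (limma adjusted p = 0.205), and 1.26 ± 0.14 without week 12 replicate 1 (limma adjusted p = 0.0152). Tnf, which encodes tumour necrosis factor, differed by 0.92 ± 0.22, and its lowest late array, week 12 replicate 1 at 4.50, lay below the highest early array at 4.70. Ptgs2, the inducible cyclooxygenase, read 6.88 in week 12 replicate 2, whereas the other 3 late arrays read 5.11, 5.36 and 5.99 and the early arrays 4.93 to 5.04.

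Of the 22 measured genes in this list, 20 had a positive difference, with a median of 0.14. At an unadjusted p under 0.05, 8 lay higher and none lower. The late arrays lay wholly above the early ones for 4 members, as they did for 3.24% of all genes. The granule and calprotectin genes were dim: S100a8, a subunit of calprotectin abundant in neutrophils, read 3.55 to 4.23 in the late arrays and 3.26 to 3.63 in the early arrays, which overlapped. In all, 16 of the 22 lay below the array median.

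Immediate early genes had the highest list median. Of 17 measured, 16 differences were positive with a median of 0.37, and 7 lay higher and none lower at an unadjusted p under 0.05. Without week 12 replicate 1 the median was 0.59, all 17 were positive and 2 were called. In that setting 14 of the 17 lay higher at an unadjusted p under 0.05 and none lower, where 4.10% of all genes lay higher and 4.00% lower. Those 2 were Atf3 and Nr4a1. The mean level of the list in week 12 replicate 1, at 6.49, was the lowest of the late arrays, whose highest was 7.70, and it lay below the early range of 6.62 to 6.71. The part of that array in the difference between the 2 medians was not tested beyond leaving it out.

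Nr4a1, an orphan nuclear receptor, read 5.31 and 6.92 at week 12 and 5.63 and 6.70 at week 16, against 5.15 and 4.68 at week 4 and 4.89 and 4.55 at week 8. The groups did not overlap, and the nearest arrays were week 12 replicate 1 and week 4 replicate 1. The difference was 1.32 ± 0.34 (limma adjusted p = 0.308), and 1.72 ± 0.25 without week 12 replicate 1 (limma adjusted p = 0.0388).

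Nr4a3, its relative, read 4.73 and 5.45 at week 12 and 4.53 and 4.66 at week 16, against 3.99 and 3.92 at week 4 and 3.62 and 3.58 at week 8. The gap between the groups was wider than the difference between the 2 mice of week 16, 4 or 8, though only week 12 replicate 2 exceeded the array median. The difference was 1.06 ± 0.15 (limma adjusted p = 0.119), and 1.24 ± 0.099 without week 12 replicate 1 (limma adjusted p = 0.00484).

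Atf3, a stress-induced transcription factor, read 8.80 and 10.19 at week 12 and 8.74 and 8.86 at week 16, against 8.51 and 8.63 at week 4 and 8.05 and 7.88 at week 8. Week 12 replicate 2 was far above the other late arrays, and week 0 replicate 1 at 8.82 lay among them. The difference was 0.88 ± 0.25 (1.84-fold, limma adjusted p = 0.338), and 1.23 ± 0.11 without week 12 replicate 1 (limma adjusted p = 0.00484). Egr1, another immediate early transcription factor, had a difference of 1.07 ± 0.72 and ran from 7.18 to 10.66 in the late arrays and from 7.02 to 8.33 in the early arrays, which overlapped. Fosb and Fosl1, partners of Jun in the AP-1 factor, differed by 0.44 ± 0.095 and 0.56 ± 0.16, with no overlap for either, at levels below the array median.

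The 250 bases before the transcription start of 5 of these genes are shown because the genes lay higher together in the late weeks. Sequences and starts are from RefSeq on build GRCm38.p6, written 5′ to 3′ on the gene's strand, with motif matches in capitals. The motifs searched on both strands were AP-1 (TGANTCA), the cyclic AMP response element (CRE, TGACGTCA), its core (TGACG, which every full CRE also contains), NF-kB (GGG, any pair of bases, then TTTCC), the CArG box bound by serum response factor, and the TATA box (TATAAA).
Tnfaip6: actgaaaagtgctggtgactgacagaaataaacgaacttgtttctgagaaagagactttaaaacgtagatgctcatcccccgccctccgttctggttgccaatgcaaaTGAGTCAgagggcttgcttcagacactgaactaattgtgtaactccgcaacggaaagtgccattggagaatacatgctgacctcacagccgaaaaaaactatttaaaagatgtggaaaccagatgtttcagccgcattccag
Il1b: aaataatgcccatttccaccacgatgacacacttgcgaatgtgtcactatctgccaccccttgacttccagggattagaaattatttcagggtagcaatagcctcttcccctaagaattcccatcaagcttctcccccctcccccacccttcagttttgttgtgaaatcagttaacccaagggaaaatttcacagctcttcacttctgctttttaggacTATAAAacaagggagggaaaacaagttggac
Nr4a3: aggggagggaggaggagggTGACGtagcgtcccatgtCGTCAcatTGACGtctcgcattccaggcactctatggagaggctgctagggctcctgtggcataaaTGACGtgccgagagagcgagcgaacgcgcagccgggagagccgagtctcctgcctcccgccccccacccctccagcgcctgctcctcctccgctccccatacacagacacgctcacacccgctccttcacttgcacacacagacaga
Nr4a1: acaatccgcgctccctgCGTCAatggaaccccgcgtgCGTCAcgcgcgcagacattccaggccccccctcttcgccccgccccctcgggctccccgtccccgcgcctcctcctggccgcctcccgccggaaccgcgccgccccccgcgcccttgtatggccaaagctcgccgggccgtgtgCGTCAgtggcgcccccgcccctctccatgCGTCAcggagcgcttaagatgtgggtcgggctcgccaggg
Atf3: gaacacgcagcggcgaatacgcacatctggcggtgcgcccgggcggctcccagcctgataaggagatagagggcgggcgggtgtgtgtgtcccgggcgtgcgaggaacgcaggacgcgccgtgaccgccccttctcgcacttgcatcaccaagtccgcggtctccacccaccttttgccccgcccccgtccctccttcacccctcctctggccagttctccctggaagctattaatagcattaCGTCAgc
These windows are chr2:52037863-52038112 (+ strand) for Tnfaip6, chr2:129371140-129371389 (- strand) for Il1b, chr4:48045055-48045304 (+ strand) for Nr4a3, chr15:101266596-101266845 (+ strand) for Nr4a1 and chr1:191183334-191183583 (- strand) for Atf3. Tnfaip6 held 1 AP-1 match, whose first base lies 142 bases before the start, and AP-1 matches occur in 6.75% of the 32851 promoter windows of this length. Il1b held a TATA box 31 bases before the start, a motif found in 12.4% of windows. Nr4a3 held 4 CRE cores, at 231, 213, 205 and 147 bases before the start. Nr4a1 also held 4, at 233, 213, 69 and 40 bases, and Atf3 held 1 at 7 bases. The core occurs in 17.8% of windows. A full CRE (1.55% of windows), NF-kB (1.41%) and the CArG box (1.47%) had no match in these 5 windows. The windows of Gfpt2, S100a6, Lifr, Lrig3 and Fkbp5 were searched in the same way: Gfpt2 held 1 AP-1 match 223 bases before the start, and the other 4 held none of these motifs. Ccl2 and Ccl7 had no listed transcription start in the source of these windows and were not searched.

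The list of epidermal growth factor receptor (EGFR) ligands, which drive keratinocyte growth and wound closure, and the receptor itself had 7 measured members and a median of 0.10. At an unadjusted p under 0.05, 3 ligands lay higher and 1 member, the receptor, lay lower. Hbegf, a membrane-anchored ligand, read 6.67 and 8.99 at week 12 and 7.59 and 8.00 at week 16, against 6.63 and 6.74 at week 4 and 6.27 and 6.21 at week 8. Only week 12 replicate 1 overlapped the early arrays. The difference was 1.35 ± 0.40 (2.56-fold, limma adjusted p = 0.365), and 1.93 ± 0.17 without that array (limma adjusted p = 0.00484).

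Ereg, which encodes epiregulin, had the same order among the late arrays, with 5.50 and 7.70 at week 12 and 7.13 and 7.20 at week 16, against 5.56 and 6.45 at week 4 and 4.996 and 5.13 at week 8. Its difference of 1.35 ± 0.53 was not called with or without week 12 replicate 1 (limma adjusted p = 0.392 and 0.258). Epgn, the ligand epigen, differed by 0.56 ± 0.15 and was called without that array (limma adjusted p = 0.0330). Egfr, the receptor itself, differed by -0.43 ± 0.18, with 7.33 to 8.27 in the late arrays and 8.23 to 8.34 in the early arrays, which overlapped.

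Dusp6, Ccn1 and Srf, on no list here, were picked from the 34 genes called without week 12 replicate 1 after their values were seen. Dusp6, a phosphatase that limits ERK signalling, read 5.45 to 7.03 in the late arrays and 5.39 to 5.53 in the early arrays. Ccn1, a matricellular protein, read 6.08 to 9.25 in the late arrays and 5.85 to 6.47 in the early arrays, and Srf, the serum response factor, read 5.34 to 6.48 in the late arrays and 5.32 to 5.56 in the early arrays. In all 3 the lowest late array was week 12 replicate 1 and the highest was week 12 replicate 2. Without replicate 1 their differences were 1.21, 2.45 and 0.80 (limma adjusted p = 0.0111, 0.0111 and 0.0289), against 0.81, 1.66 and 0.51 with it. Fhl2, a LIM-domain cofactor, and Tnfrsf12a, the receptor for the cytokine TWEAK, were called in the same setting and did not overlap with all 8 arrays either. Their differences over all arrays were 0.81 ± 0.21 and 0.83 ± 0.19.

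**Figure D3:**
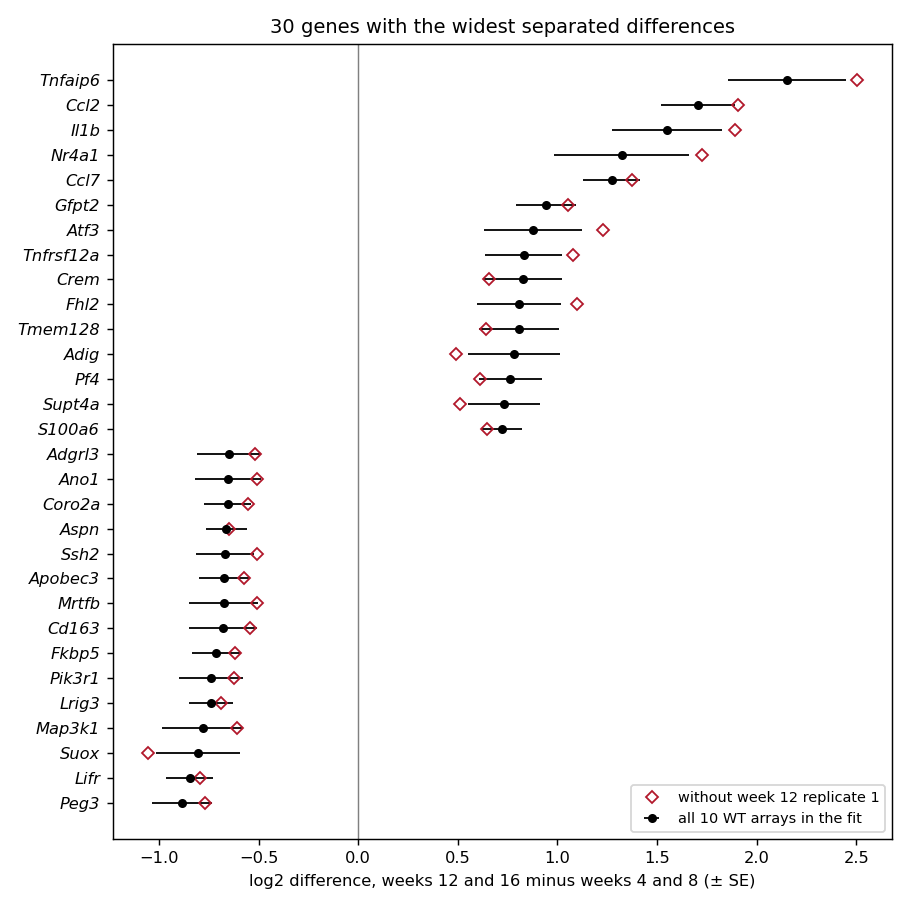
Late minus early log2 difference (x axis) of the 15 highest and 15 lowest genes by the naming rule (rows), as black points with standard errors from the fit on 10 WT arrays, and as red diamonds without week 12 replicate 1. Tnfaip6 at 2.15 and Peg3 at -0.88 mark the ends. Every diamond keeps the side of its point, which the rule's demand for separated arrays fixes in advance.

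The naming rule took the 15 highest and 15 lowest differences among genes whose late and early arrays did not overlap, whose higher group averaged at least 6 and whose unadjusted p was under 0.01. Since the rule asked for separated arrays, their separation is a description. Besides those above, the higher genes included Gfpt2, an enzyme of the hexosamine pathway, with 6.12 to 6.56 in the late arrays and 5.12 to 5.50 in the early arrays (0.94 ± 0.15, limma adjusted p = 0.170). S100a6, a calcium-binding protein, read 9.50 to 10.04 in the late arrays and 8.82 to 9.17 in the early arrays (0.72 ± 0.10, limma adjusted p = 0.119). Pf4, a platelet chemokine also made by macrophages, read 6.70 to 7.31 in the late arrays and 5.83 to 6.58 in the early arrays (0.76 ± 0.16).

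S100a6 and Pf4 had their highest value in week 12 replicate 1, and so did Crem, Tmem128, Adig and Supt4a. Supt4a, a transcription elongation factor subunit, read 10.79 there and 9.36 to 9.92 in the other late arrays, against 9.08 to 9.22 in the early arrays. Its difference was 0.73 ± 0.18, and 0.51 ± 0.13 without that array. Week 0 replicate 2, the array most like it, read 10.06 for Supt4a, 8.54 for Tmem128, 7.44 for Adig and 6.74 for Crem. For these 4 genes that unexposed array lay above both week 16 arrays, so the late and week 0 arrays overlapped.

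The lower genes had smaller differences. Lifr, the receptor for leukaemia inhibitory factor, read 5.45 and 5.64 at week 12 and 6.18 and 6.09 at week 16, against 6.64 and 6.38 at week 4 and 6.92 and 6.80 at week 8. Week 12 was the lowest and week 16 lay between. The difference was -0.85 ± 0.12 (limma adjusted p = 0.119), and -0.80 ± 0.13 without week 12 replicate 1 (limma adjusted p = 0.0709).

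Peg3, an imprinted zinc-finger gene, had the lowest difference of the 15 genes named by rule as lower, -0.88 ± 0.15, with 5.76 to 6.62 in the late arrays and 6.84 to 7.21 in the early arrays. Lrig3, a transmembrane protein with leucine-rich repeats, read 5.16 to 5.93 in the late arrays and 6.17 to 6.52 in the early arrays (-0.74 ± 0.11, limma adjusted p = 0.159). Fkbp5, a co-chaperone of steroid receptors, read 6.30 to 6.75 in the late arrays and 6.96 to 7.69 in the early arrays (-0.71 ± 0.12). Aspn, a small proteoglycan of the matrix, read 5.33 to 5.60 in the late arrays and 5.86 to 6.32 in the early arrays (-0.66 ± 0.10).

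Suox, the mitochondrial sulfite oxidase, was the single gene called lower without that array. It read 6.66 and 5.66 at week 12 and 6.64 and 6.36 at week 16, against 7.26 and 6.80 at week 4 and 7.14 and 7.34 at week 8. The difference was -0.80 ± 0.21 over all arrays (limma adjusted p = 0.313) and -1.05 ± 0.15 without week 12 replicate 1 (limma adjusted p = 0.0405). For Map3k1 and Pik3r1, which encode a stress kinase and a regulatory subunit of PI3 kinase, the lowest late value was in week 12 replicate 1. Week 0 replicate 2 was below the early arrays for both, at 5.75 for Map3k1 and 9.52 for Pik3r1.

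Longer genes lay lower and shorter genes higher in the late weeks. In quartiles of genomic span, from short to long, the median differences were 0.074, 0.061, 0.0061 and -0.077, and without week 12 replicate 1 they were 0.056, 0.047, 0.0043 and -0.053. In the longest quartile week 12 replicate 1 had the lowest median deviation, -0.16. Its part in the differences of single lower genes was not tested beyond leaving it out.

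Among the lists of the gland's own tissue, sebaceous lipid genes had a median of -0.15 over 22 members, with 7 lower and none higher at an unadjusted p under 0.05, and 9 of the 22 differences were positive. Without week 12 replicate 1 the median was -0.072 and 4 lay lower. Awat2, which makes wax esters, was among the positive members, with 10.62 to 11.47 in the late arrays and 10.76 to 10.85 in the early arrays (0.20 ± 0.11). Scd1, a fatty acid desaturase abundant in sebocytes, read 12.25 to 12.44 in the late arrays and 12.54 to 12.68 in the early arrays, a separation of -0.25 ± 0.093. Dgat2, which makes triglycerides, read 7.30 to 7.91 in the late arrays and 8.04 to 8.25 in the early arrays (-0.43 ± 0.11). Scd3, another desaturase, read 6.47 to 7.16 in the late arrays and 7.10 to 7.41 in the early arrays, which overlapped. The mean level of the list was 8.24 to 8.36 in the late arrays and 8.39 to 8.44 in the early arrays, so the list means did not overlap. No member was called.

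Cell cycle genes had a median of -0.095 over 31 members, and 11 differences were positive. At an unadjusted p under 0.05, 4 lay lower and none higher. The mean level of the list was 5.93 to 6.31 in the late arrays and 6.16 to 6.31 in the early arrays, which overlapped. Mki67, a proliferation marker, read 6.66 and 6.86 at week 12 and 7.98 and 7.54 at week 16, against 8.09 and 8.02 at week 4 and 7.99 and 7.89 at week 8. The week 12 mice were low and the week 16 mice close to the early ones. The late minus early difference was -0.74 ± 0.19 (limma adjusted p = 0.313). Cenpf, a kinetochore protein, showed the same order, with 5.49 to 6.47 in the late arrays and 6.49 to 6.65 in the early arrays. The list as a whole did not share it: its mean in week 12 replicate 1 was 6.22, within the early range.

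Matrix and contractile genes of the stroma list did not run together. Of 21 members, 5 differences were positive and the median was -0.13, with 2 higher and 5 lower at an unadjusted p under 0.05. Postn, a matricellular protein of connective tissue, read 6.88 to 8.18 in the late arrays and 7.95 to 8.95 in the early arrays (-0.95 ± 0.20), and Fn1, fibronectin, read 5.44 to 6.83 in the late arrays and 6.80 to 7.43 in the early arrays (-0.98 ± 0.27), and both overlapped. Lox, which cross-links collagen, had no overlap, with 5.43 to 6.32 in the late arrays and 6.36 to 6.77 in the early arrays (-0.62 ± 0.14). The contractile genes Acta2 and Tagln were the 2 members called without week 12 replicate 1, and they lay higher. Acta2, smooth muscle actin, read 7.75 and 8.94 at week 12 and 9.26 and 9.41 at week 16, against 8.33 and 8.48 at week 4 and 8.01 and 8.33 at week 8.

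Endothelial markers had a median of -0.14, with 3 of 11 lower and none higher at an unadjusted p under 0.05. Of the 11 differences 3 were positive. Without week 12 replicate 1 the median was -0.10, with 4 positive. Pecam1, an adhesion molecule of endothelium, read 6.17 to 6.61 in the late arrays and 6.87 to 7.01 in the early arrays (-0.45 ± 0.11). The mean of the list was 5.35 to 5.76 in the late arrays and 5.70 to 5.80 in the early arrays, with week 12 replicate 1 the lowest.

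Macrophage markers split. Of 15, 5 lay higher and 1 lower at an unadjusted p under 0.05, and the median was 0.026, or 0.11 without week 12 replicate 1. Lyz2, the lysozyme of myeloid cells, read 9.56 to 10.13 in the late arrays and 8.65 to 9.30 in the early arrays (0.70 ± 0.12), and Cd14, a co-receptor for bacterial lipopolysaccharide, differed by 0.68 ± 0.11 with 5.28 to 5.88 in the late arrays and 4.62 to 5.29 in the early arrays. Cd163, a scavenger receptor of resident macrophages, read 6.22 to 7.31 in the late arrays and 7.33 to 7.83 in the early arrays (-0.68 ± 0.17). The mean level of the list was 6.09 to 6.30 in the late arrays and 6.07 to 6.23 in the early arrays, so the list as a whole overlapped.

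The T and B lymphocyte list had 14 of 17 differences positive, a median of 0.16, and 4 higher and none lower at an unadjusted p under 0.05, but 16 of its members lay below the array median. Matrix proteases had 5 higher and 2 lower of 14. Mmp3, a stromal protease, read 6.79 to 7.64 in the late arrays and 6.26 to 6.71 in the early arrays (0.63 ± 0.17), while week 0 replicate 2 read 7.03. The hypoxia and glycolysis list (15 genes, median -0.15) and the circadian list (16 genes, median -0.15) each had 3 positive members. With week 12 replicate 1 left out their medians were -0.034 and -0.047, with 5 and 6 positive. Vegfa, the endothelial growth factor of the hypoxia list, read 7.69 to 8.09 in the late arrays, against 7.95 and 7.83 at week 4 and 8.96 and 8.46 at week 8, so only the week 8 mice stood above the others. The medians of the basal and stress keratinocyte (-0.071), cholesterol synthesis (0.13), androgen and steroid (0.10), heat shock (0.074), MHC class II (-0.069), interferon (-0.066), fat cell (-0.11) and mast cell (0.20) lists came with at most 3 members past an unadjusted p of 0.05 in either direction. Leaving out week 12 replicate 1 turned the basal and stress keratinocyte and interferon medians to 0.068 and 0.054, and the heat shock, MHC class II and mast cell medians were then 0.014, -0.031 and 0.12.

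**Figure D4:**
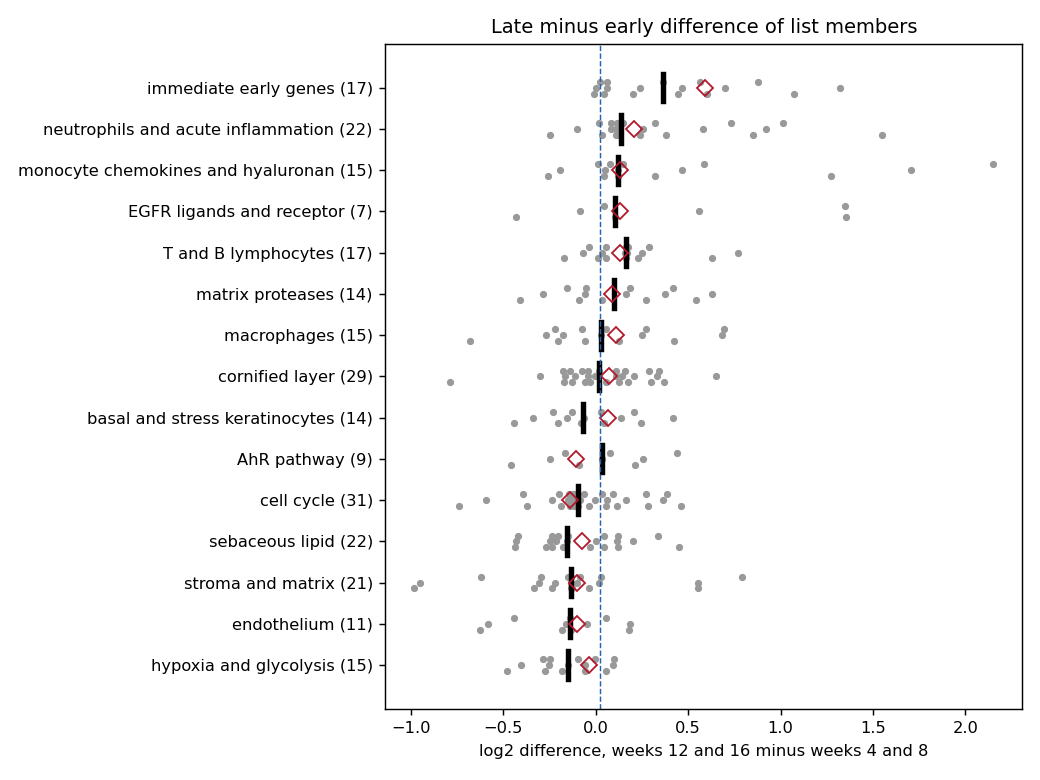
Late minus early log2 difference (x axis) of each member (grey points) of 15 gene lists (rows, with the number of measured members), the list median (black bar), the median without week 12 replicate 1 (red diamond) and the median of all genes, 0.024 (dashed line). The immediate early list has the median farthest from the dashed line, 0.37.

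Of the CYP1 enzymes, Cyp1a1 read 4.26 to 4.69 in the late arrays and 4.38 to 4.60 in the early arrays, all below the array median, and Cyp1b1 read 6.17 to 6.59 in the late arrays and 6.43 to 6.77 in the early arrays. Both overlapped, with differences of -0.089 ± 0.13 and -0.17 ± 0.12. Over the 9 measured genes of the aryl hydrocarbon receptor list the median was 0.032, with 1 higher and 1 lower at an unadjusted p under 0.05. That median turned to -0.10 without week 12 replicate 1, with 3 positive. Ahr, the receptor, differed by -0.46 ± 0.19 and Tiparp, one of its targets, by 0.44 ± 0.16, both with overlapping arrays. In the p53 list, 13 genes had a median of 0.089, with 1 higher and 1 lower, and with 4 higher and none lower without week 12 replicate 1. Gadd45a, a gene induced by DNA damage, read 7.40 to 7.71 in the late arrays and 6.93 to 7.22 in the early arrays (0.52 ± 0.11). The 17 genes of the NRF2 and glutathione list had a median of 0.14, with 3 higher and 1 lower, and a median of 0.074 without that array. The cornified layer list (29 genes, median 0.018, or 0.073 without that array) had none past an unadjusted p of 0.05.

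The 2 late weeks were set against each other to see whether they formed a single state. Between week 16 and week 12, 2 of 18784 genes were called by limma (0.0106%), both lower at week 16, and 3070 had an unadjusted p under 0.05 (16.3%). Ccl7 fell by 1.83 ± 0.20 on the log2 scale at week 16 against week 12 (limma adjusted p = 0.0492), and the olfactory receptor gene Olfr998 fell by 1.54 ± 0.15 (limma adjusted p = 0.0314), with 6.18 and 5.94 at week 16 against 7.66 and 7.55 at week 12. Ccl2 differed by -1.77 ± 0.27 (limma adjusted p = 0.183) and Tnfaip6 by -2.00 ± 0.42 (limma adjusted p = 0.251). Il1b and Nr4a1 differed by -0.17 ± 0.39 and 0.051 ± 0.48. Pon1, which encodes paraoxonase, differed by 1.67 ± 0.20 (limma adjusted p = 0.0758). Without week 12 replicate 1, 3 genes were called, Pon1, Ccl7 and Ccl2, and Olfr998 was not. With either week 16 array left out no gene was called, and without week 12 replicate 2 there were 2214.

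Between week 8 and week 4 limma called no gene (0%), and 519 had an unadjusted p under 0.05 (2.76%). Retnlg, a resistin-like secreted protein, read 5.86 and 5.83 at week 8 against 4.58 and 4.37 at week 4 (1.37 ± 0.18, limma adjusted p = 0.133), and 5.92 and 5.51 at week 12 against 4.32 and 4.48 at week 16. It was therefore high at weeks 8 and 12 and low at weeks 4 and 16, and its late minus early difference was -0.10 ± 0.13. Egln3, an oxygen-sensing hydroxylase, read 11.13 and 10.73 at week 8 against 9.65 and 8.97 at week 4.

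The Cyp1a1 KO arrays of the same weeks were used to ask whether the late minus early difference was shared by the genotypes. Cyp1a1 apart, the genes named here were mostly chosen on their WT values, which favours a wider difference in WT than in KO. No gene was called for the difference between WT and KO (0%), and 2240 had an unadjusted p under 0.05 (11.9%). In the same fit, on 20 WT and KO arrays, 4 genes were called late against early in KO (0.0213%). KO week 12 replicate 2 had a narrow range of values, with a standard deviation over all genes of 1.35 against 1.76 to 1.97 in the other 7 KO arrays of these weeks, and 6577 genes had an unadjusted p under 0.05 in KO (35.0%). Cyp1a1 itself read 4.26 to 4.69 in the WT arrays of these weeks and 3.76 to 4.80 in the KO arrays, so this signal did not separate the genotypes.

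Tnfaip6 read 4.70 and 5.34 at week 12 and 4.10 and 4.10 at week 16 in KO, against 4.88 and 5.98 at week 4 and 4.58 and 4.37 at week 8 in KO. Late and early KO arrays overlapped, with a KO difference of -0.39 ± 0.30. The WT minus KO difference of differences was 2.55 ± 0.43 (limma adjusted p = 0.376). For Ccl2 it was 1.57 ± 0.32 (limma adjusted p = 0.395), with a KO difference of 0.14 ± 0.23, and for Ccl7 it was 1.19 ± 0.22 (limma adjusted p = 0.376), with a KO difference of 0.087 ± 0.16. Il1b and Nr4a1 had KO differences of 0.0092 ± 0.29 and -0.016 ± 0.30. Other named genes lay higher late in KO too, at mean levels below the array median and none called. These were Cxcl2 (0.57 ± 0.21), Tnf (0.57 ± 0.28), Fosl1 (0.49 ± 0.20), Epgn (0.60 ± 0.24) and S100a8 (1.19 ± 0.30). Without KO week 12 replicate 2 their KO differences were 0.57, 0.22, 0.25, 0.39 and 0.78. Hbegf and Ereg had KO differences of -0.37 ± 0.40 and -0.76 ± 0.48. Atf3 had a KO difference of -1.19 ± 0.32, and its WT minus KO value was 2.07 ± 0.46 (limma adjusted p = 0.402). Without KO week 12 replicate 2 the KO difference of Atf3 was -0.78, that of Ccl2 0.21, that of Ccl7 -0.014 and that of Nr4a1 -0.097, and the WT minus KO values of Tnfaip6, Ccl2 and Ccl7 were 2.70, 1.496 and 1.29, none called.

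Lifr, Lrig3 and Fkbp5 had late minus early differences of -0.85, -0.74 and -0.71 in WT and -1.11, -0.55 and -0.36 in KO. In KO none of the 3 was called (limma adjusted p = 0.0930, 0.101 and 0.142) and late and early arrays overlapped. Their WT minus KO values were 0.27 ± 0.45, -0.19 ± 0.28 and -0.36 ± 0.24, none called. Without KO week 12 replicate 2 the KO differences were -0.65, -0.41 and -0.21, and the WT minus KO values -0.19, -0.33 and -0.50. Without WT week 12 replicate 1, 3 genes were called between the genotypes, Tnfaip6, Fhl2 and Ccn1, all with a larger difference in WT. Without KO week 12 replicate 2 none was called, and without KO week 12 replicate 1 there were 7683.

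**Figure D5:**
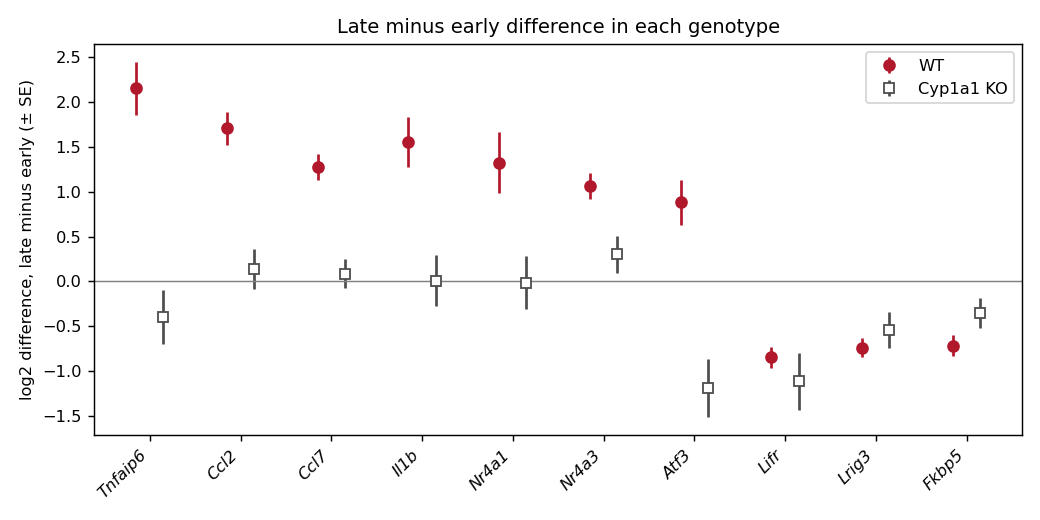
Late minus early log2 difference (y axis, ± SE) of 10 genes (x axis) in WT (filled red circles) and Cyp1a1 KO (open grey squares), 8 arrays each. The WT standard errors are from the fit on 10 WT arrays and the KO ones from the fit on 20 WT and KO arrays. The WT values of Tnfaip6, Ccl2, Ccl7, Il1b and Nr4a1 lie between 1.27 and 2.15 and the KO values between -0.39 and 0.14, and none of the differences between genotypes was called. The genes were chosen with their WT values known, which favours wider differences in WT. Cxcl2, Tnf, Fosl1, Epgn and S100a8, whose KO differences were positive, are not shown.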

How the data were processed

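The values were measured on 1-colour arrays, 1 per mouse. The authors deposited log2 intensities per probe set, made with RMA per the submitters' processing notes. RMA corrects background, quantile normalizes and summarises probes, so differences are relative to each array's distribution; array medians still differ slightly. The annotation build and RMA's version were not given in the sources used here. Array number limits the precision.

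The platform annotation gave 1 symbol to 18786 of 21212 probe sets, several to 6 and did not list 2420. The probe set with the highest mean stood for each of 18784 genes, with no low-value filter. A mean for each of 5 weeks was fitted to the 10 WT arrays in limma 3.58.1 under R 4.3.3 (residual degrees of freedom 5, prior 4.50). The contrast was weeks 12 and 16 minus weeks 4 and 8. The genotype comparison used 20 WT and KO arrays. Tests were two-sided, with Benjamini-Hochberg adjustment over all genes within a comparison, and 0.05 was the threshold. The procedure was tested on simulated data in which all arrays had the same spread and both late weeks shifted equally. The simulation held no array that stood apart, so it does not bear on week 12 replicate 1.

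Members and the 33 gene lists (466 measured genes) were chosen with earlier results of these data known. Genes were named by rule: Cyp1a1, Cyp1b1, Tnfaip6 and Ccl7; the 15 highest and 15 lowest separated differences as defined in the text; at most 4 members per list, by smallest p; and the 3 lowest-p genes of each other comparison. Nr4a3, Ptgs2, S100a8, Egr1, Dusp6, Ccn1, Srf, Acta2, Tagln, Marco and Krt6a were named after their values were seen. Alternatives were quantile normalization, median centring, a filter at a mean log2 of 6, trend with robust variances, array weights, other sample sets, mean of probe sets, the replicate number as a block, and leaving out each array. Leaving out both arrays that stand apart was added after seeing the data, as were the joint omission of 1 WT and 1 KO array and the list counts without week 12 replicate 1. The Cyp1a1/1b1 double knockout arrays entered only the fit on all 30 arrays.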

Additional observations from a re-analysis of the deposited data

Results flagged for a closer look

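Within groups of 4 arrays, the highest or lowest array stood far from the other 3 in 9 of 194 groups of the named genes. The gap rule used flags about 1 in 20 groups by chance. Week 12 replicate 2 was the array in 4 of the late groups. It read 10.19 for Atf3, where the other late arrays read 8.74 to 8.86, 5.03 for Epgn (others 4.18 to 4.30), 5.11 for Cxcl2 (others 3.96 to 4.15) and 7.15 for Top2a, a DNA topoisomerase of dividing cells (others 7.70 to 7.82). Week 12 replicate 1 was the array in 3, with 4.50 for Tnf (others 5.22 to 5.34), 6.17 for Pecam1 (others 6.59 to 6.61) and 4.91 for Zmat3, a p53 target (others 5.21 to 5.24). Among the early arrays, week 4 replicate 1 read 3.63 for the scavenger receptor Marco (others 3.88 to 3.90) and 7.22 for Gadd45a (others 6.93 to 6.97).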

How the results depend on the processing

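The direction of 92 of 97 examined genes was the same under all 19 alternatives of the late against early comparison. Many of the 97 were chosen in these data for separated arrays or small p, which favours a steady direction. Where late and early arrays do not overlap, leaving out 1 array cannot turn the direction. The count of called genes was 0 as reported and with quantile normalization, median centring, the low-value filter, the 8 arrays alone (as weeks or as 2 groups) and the mean of probe sets. It was 2 with trend and robust variances (Ccl2, Ccl7), 9 with array weights, 1 in the fit on all 30 arrays (Tnfaip6), and 1 with the replicate number as a block (Ccl7). Both mice of a week received the same array weight, 0.473 at week 12, so the weights did not single out week 12 replicate 1. Leaving out 1 array gave 0 to 81, and leaving out both arrays that stand apart gave 209, among them all 34 called without week 12 replicate 1. Week 16 against 12 gave 2 with the block, 1 with the filter, 0 with array weights, 0 on all 30 arrays and 0 to 2214 with 1 array left out. Week 8 against 4 gave 36 with array weights, and 0 in the block and other settings. WT minus KO gave 0 to 7683 with 1 array left out, 7 without WT week 12 replicate 1 and KO week 12 replicate 2 together, and 0 with the block. The causes were not tested. No pairing by replicate number was seen: deviations of same-numbered mice correlated at -0.21 to 0.13 between weeks. Each week gave a single difference between 2 mice, so a weak pairing could go unseen. In late against early, 5 genes turned sign, and none was called in the setting where it turned; with 1 array left out, Cyp1a1 ranged from -0.20 to 0.019, Krt6a from -0.12 to 0.53, Retnlg from -0.21 to 0.0013, Olfr998 from -0.099 to 0.056 and Pon1 from -0.069 to 0.20, and Pon1 was -0.069 when both arrays that stand apart were omitted.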
